A study of Mus musculus with 6 samples.

Results

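A set of 7 mature microRNAs (miRNAs) best known from neurons, glia and pigment cells was followed through cultured mouse skin fibroblasts. The members were mmu-miR-9-5p, mmu-miR-9-3p, mmu-miR-124-3p, mmu-miR-204-5p, mmu-miR-211-5p, mmu-miR-218-5p and mmu-miR-338-3p, written below without the species prefix. They were taken by name from the 1907 mature miRNAs in the count files, with earlier results of these data known. Of these 7 members, 5 had enough counts to be tested and the others, miR-9-3p and miR-124-3p, did not. The related neural miRNAs miR-138 and miR-129 were left out of the set.

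The cells were primary dermal fibroblasts from newborn mice on a mixed C57Bl/6 and FVB/N background, expanded for 6 days and harvested at passage 1. The 3 control libraries (ctrl, genotype Col1a2Cre-wt) came from mice that carried only a Cre recombinase, and the 3 caNrf2 libraries (genotype Col1a2Cre-caNrf2) from mice that also carried a constitutively active mutant of Nrf2, the transcription factor that turns on antioxidant genes. Each library came from its own mouse. Both groups carry the Cre, which is named for Col1a2, a collagen gene active in fibroblasts, and the cultures were grown from skin without a stated sort. Library totals ran from 10443268 to 28237159 counts, and all levels below are CPM (library-scaled counts) computed with scaling by the TMM factors of edgeR, which lay between 0.984 and 1.04.

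An miRNA is cut from a hairpin precursor whose 5′ and 3′ arms (5p and 3p) can each yield a mature strand, and bases 2 to 8 of that strand, the seed, choose the messenger RNAs it represses. miR-124 is the most abundant miRNA of neurons, and miR-9 is made by neural progenitors and neurons. miR-338 promotes maturation of oligodendrocytes, the myelinating glia of the brain, and miR-218 is known from motor neurons and is also made outside the nervous system. miR-211 lies within the melanocyte gene Trpm1 and is a product of pigment cells, while its close relative miR-204 is abundant in pigmented epithelia of the eye.

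Mature sequences from RefSeq (GRCm38.p6, the same assembly as mm10) matched 6 of the 7 members. They are shown because the seed decides which members can share targets; the seed is in capitals.
miR-9-5p: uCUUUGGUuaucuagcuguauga
miR-9-3p: aUAAAGCUagauaaccgaaagu
miR-204-5p: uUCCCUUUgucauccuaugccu
miR-211-5p: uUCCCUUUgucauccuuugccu
miR-218-5p: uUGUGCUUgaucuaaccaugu
miR-338-3p: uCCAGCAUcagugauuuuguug

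Only miR-204-5p and miR-211-5p share a seed among these 6. Counted from the 5′ end of miR-204-5p, they differ by the single substitution A17U, outside the seed, and are identical at 21 of 22 bases. Their counts were listed separately, but the rule by which reads matching both were assigned is not given in the sources used here. Among the 1623 names of the count files with a RefSeq mature sequence, 1 further miRNA, miR-7670-3p, has the miR-204 seed, at 0.253 ± 0.140 CPM in ctrl and 0.124 ± 0.016 CPM in caNrf2 fibroblasts (mean ± SD, n = 3). miR-7002-3p has the miR-218-5p seed and had no count in any library.

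The precursors lie at separate places in the genome, and some of the members have several. miR-9 has 3 precursors, Mir9-1 at chr3:88215598-88215686, Mir9-2 at chr13:83738814-83738885 and Mir9-3 at chr7:79505264-79505353, all on the plus strand. In GENCODE M21, Mir9-1 is intronic in the lincRNA gene Gm3764, Mir9-2 in an exon of C130071C03Rik and Mir9-3 in an intron of Mir9-3hg. The hairpins are printed to show that both mature arms, in capitals, are the same in each, so that the counts cannot tell which gene was transcribed.
Mir9-1: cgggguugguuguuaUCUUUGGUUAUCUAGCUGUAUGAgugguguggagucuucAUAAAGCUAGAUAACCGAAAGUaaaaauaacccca
Mir9-2: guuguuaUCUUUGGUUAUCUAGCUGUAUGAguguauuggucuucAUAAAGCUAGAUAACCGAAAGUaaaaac
Mir9-3: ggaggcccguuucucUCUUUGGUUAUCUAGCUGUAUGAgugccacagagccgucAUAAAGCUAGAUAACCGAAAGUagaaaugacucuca

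The other precursors with a RefSeq hairpin sit in introns of protein-coding genes, on the strand of the host gene. Mir204 (chr19:22750605-22750672, plus strand) is in Trpm3 and Mir211 (chr7:64205806-64205911, plus strand) in Trpm1, 2 related ion channel genes. Mir218-1 (chr5:48223942-48224051, plus strand) is in Slit2 and Mir218-2 (chr11:35616816-35616925, plus strand) in Slit3, which encode secreted guidance proteins. Mir338 (chr11:120014765-120014862, minus strand) is in Aatk, a kinase gene of the nervous system. These small RNA counts hold no measurement of the host messenger RNAs.

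miRNAs typical of fibroblasts dominated the libraries, and the neural markers were uneven. A list of 8 miRNAs typical of mesenchymal cells, among them miR-22-3p, miR-21a-5p and miR-143-3p, summed to 456698 to 467434 CPM in ctrl and 479478 to 517221 CPM in caNrf2 libraries. In the edgeR test given below, 1 of the 8, miR-22-3p, was called higher in caNrf2 libraries. The calls lower were 3: miR-199a-3p, miR-199a-5p and miR-10b-5p. Of all 697 tested miRNAs 14.1% were called higher and 11.6% lower. The 7 members together summed to 407 to 565 CPM in ctrl and 492 to 535 CPM in caNrf2 libraries, and miR-218-5p made up 89.7% to 94.5% of that sum. Of 5 neuronal markers, summing to 144 to 154 CPM in ctrl and 198.3 to 203.6 CPM in caNrf2 libraries, miR-128-3p made up most, with means of 142 and 188 CPM, while miR-124-3p had at most 8 counts in any library. Of 3 markers of oligodendrocytes and Schwann cells, summing to 17.7 to 22.2 and 24.9 to 32.2 CPM, miR-338-3p made up most and miR-219a-2-3p had no count.

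**Figure D1:**
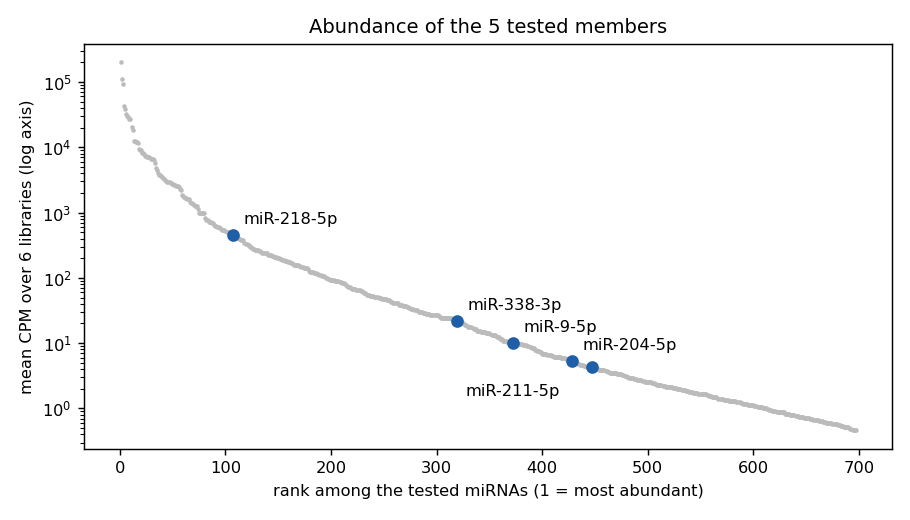
Mean CPM over the 6 libraries (log axis) against rank for the 697 tested miRNAs (grey), with the 5 tested members in blue. miR-218-5p stands at rank 107, and the other 4 lie between ranks 319 and 447.

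The mature strands with a sequence are 21 to 23 bases long, and the members were ordered by CPM. How well each miRNA was captured in the libraries was not measured, so this order is one of counts and not of amounts. Among the tested miRNAs miR-218-5p ranked 107 of 697 by mean CPM, miR-338-3p 319, miR-9-5p 372, miR-204-5p 428 and miR-211-5p 447. In ctrl libraries the CPM ranges of miR-9-5p and miR-204-5p overlapped, as did those of miR-204-5p and miR-211-5p and those of miR-9-3p and miR-124-3p. In caNrf2 libraries the same order of means held, and miR-9-5p no longer overlapped with miR-204-5p.

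Of the 5 tested members 2 rose in caNrf2 fibroblasts, miR-338-3p by 1.52-fold and miR-9-5p by 1.61-fold, and none fell. In the same edgeR quasi-likelihood fit, with p-values adjusted by the Benjamini-Hochberg method and a threshold of 0.05, 14.1% of all 697 tested miRNAs were called higher, 11.6% lower and 25.7% in either direction. The groups' CPM ranges were apart for the same 2 members, and for 41.6% of all tested miRNAs. Rises were thus common among all miRNAs, and no test set the members against the rest. The median log2 fold change was 0.25 over the 5 tested members and 0.03 over all tested miRNAs, and all 5 members had a positive value, as had 373 of all 697. The sign of miR-204-5p and miR-218-5p turned in some fits with 1 library left out.

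**Figure D2:**
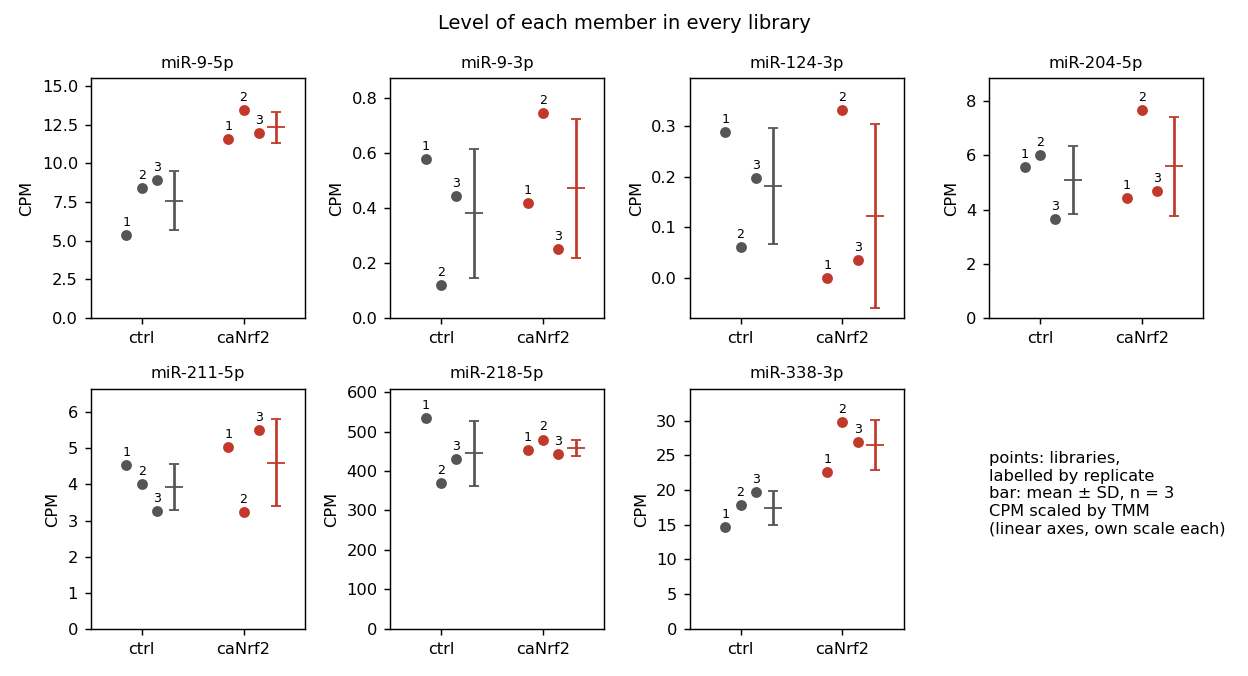
CPM of each member in the 3 ctrl (grey) and 3 caNrf2 (red) libraries, numbered by replicate, with the mean ± SD (n = 3) beside them; each panel has its own linear axis. The groups are separate for miR-9-5p and miR-338-3p and overlap for the other 5 members.

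miR-9-5p, the neural progenitor miRNA, had 5.39, 8.40 and 8.94 CPM in ctrl libraries 1, 2 and 3, from 56, 138 and 181 counts. In caNrf2 libraries 1, 2 and 3 it had 11.6, 13.4 and 11.95 CPM, from 165, 323 and 334 counts. Every caNrf2 library was above every ctrl library, and ctrl library 1 was the lowest. Group means were 7.58 ± 1.91 and 12.3 ± 0.98 CPM (SD, n = 3), a 1.61-fold rise (log2 fold change 0.68 ± 0.19, SE; 95% interval 0.26 to 1.11; edgeR adjusted p = 0.0219). The coefficient of variation between ctrl libraries was 25.2%, against 9.77% from counting error alone.

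miR-338-3p, the glial member, had 14.7, 17.8 and 19.6 CPM in the ctrl libraries and 22.7, 29.8 and 26.9 CPM in the caNrf2 libraries, in the order of their numbers. Again no ctrl library reached the lowest caNrf2 library, and ctrl library 1 was the lowest of all. The means were 17.4 ± 2.48 and 26.5 ± 3.61 CPM (SD, n = 3), a 1.52-fold rise (log2 fold change 0.60 ± 0.16, SE; 95% interval 0.24 to 0.97; edgeR adjusted p = 0.0204). Groups without overlap and with caNrf2 above were found for 23.7% of all tested miRNAs, and with caNrf2 below for 17.9%.

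Both calls were lost in some of the fits with 1 library left out. Without ctrl library 1 the log2 fold change was 0.50 for miR-9-5p and 0.49 for miR-338-3p, and neither passed (edgeR adjusted p = 0.0613 and 0.0644). miR-9-5p also missed the threshold without caNrf2 library 1, 2 or 3 (0.0527, 0.0687 and 0.0606), and miR-338-3p missed it without caNrf2 library 2 or 3 (0.0818 and 0.0779). In those fits miR-9-5p had log2 fold changes of 0.72, 0.59 and 0.70, against 0.68 over all libraries. For miR-338-3p they were 0.48 and 0.58, against 0.60. Over the 6 fits with 1 library left out, the log2 fold change of miR-9-5p stayed between 0.50 and 0.82 and that of miR-338-3p between 0.48 and 0.70.

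**Figure D3:**
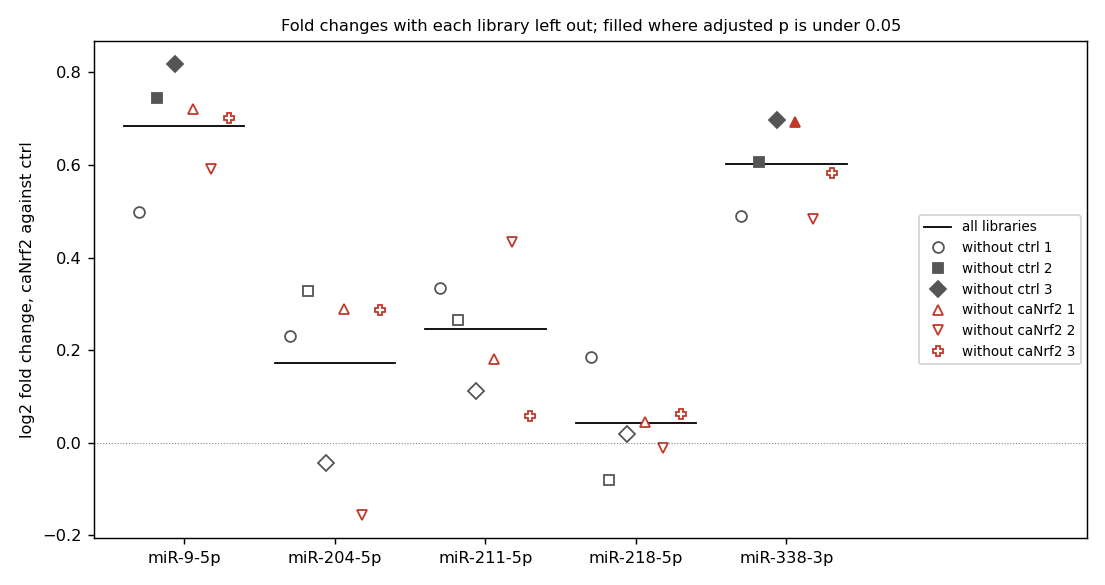
Log2 fold change (caNrf2 against ctrl) of the 5 tested members with each library left out in turn, filled where the edgeR adjusted p is under 0.05; the black line is the value over all 6 libraries. miR-9-5p and miR-338-3p stay above 0.48 in every fit but lose their fill in several, whereas miR-204-5p and miR-218-5p cross 0.

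The 3p arm of miR-9, which pairs with the 5p arm in the hairpin over a longest exact run of 12 bases, was close to the detection limit. It had 6, 2 and 9 counts in ctrl libraries 1, 2 and 3 and 6, 18 and 7 in caNrf2 libraries 1, 2 and 3, and the groups overlapped. Summed over each group this is 0.361 CPM (exact 95% Poisson interval 0.210 to 0.578) in ctrl and 0.468 CPM (0.318 to 0.664) in caNrf2 fibroblasts. The caNrf2 to ctrl ratio of the sums was 1.30 with a 95% interval of 0.695 to 2.50, which contains the 1.61-fold rise of the 5p arm as well as no change. These intervals cover counting error only.

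The 3p arm made up 5.28% ± 4.15 of the miR-9 counts in ctrl and 3.61% ± 1.62 in caNrf2 libraries (SD, n = 3; two-sided exact permutation p = 0.7, where 3 against 3 libraries allow no p below 0.1). The ctrl spread came mostly from library 1, with 9.68% of 62 counts (95% Clopper-Pearson interval 3.63% to 19.9%), and library 2, with 1.43% of 140 counts (0.173% to 5.07%).

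For miR-338 the 3p arm is the main product, and its hairpin also has a rarer 5p arm.
Mir338: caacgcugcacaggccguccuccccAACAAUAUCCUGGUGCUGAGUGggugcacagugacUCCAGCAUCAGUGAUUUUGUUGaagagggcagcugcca
The capitals mark the 5p arm, first, and the 3p arm. The 3p arm took 94.6% ± 0.90 of the counts of both arms in ctrl and 94.5% ± 2.68 in caNrf2 libraries (SD, n = 3; two-sided exact permutation p = 1.0). miR-338-5p had 0.674, 1.16 and 1.18 CPM in ctrl libraries 1, 2 and 3 and 0.631, 2.62 and 1.61 CPM in caNrf2 libraries 1, 2 and 3. Its groups overlapped, with caNrf2 library 1 the lowest of all 6. The log2 fold change was 0.70 ± 0.42 (SE; edgeR adjusted p = 0.249), with a 95% interval of -0.24 to 1.64 that contains the value of the 3p arm, and it moved from 0.19 without caNrf2 library 2 to 0.99 without caNrf2 library 1.

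A second precursor, Mir3065 (chr11:120014767-120014853), lies on the opposite strand of the Mir338 locus. The reverse complement of miR-338-3p matches miR-3065-5p over a run of 21 bases, so the arms can be told apart only by strand, and whether the counting used strand is not given in the sources used here. miR-3065-5p had 11 counts over the ctrl and 19 over the caNrf2 libraries, against 844 and 1792 for miR-338-3p.

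miR-218-5p had by far the highest CPM of the members and did not pass the test. It had 534, 371 and 431 CPM in ctrl libraries 1, 2 and 3 and 453, 480 and 443 CPM in caNrf2 libraries 1, 2 and 3. The ctrl libraries spanned the whole caNrf2 range. Means were 445 ± 82.4 and 458 ± 19.2 CPM (SD, n = 3; log2 fold change 0.04 ± 0.12, SE; edgeR adjusted p = 0.821). The 95% interval of the fold, 0.857 to 1.24, lies below the 1.61-fold and 1.52-fold estimates of miR-9-5p and miR-338-3p. It overlaps their own 95% intervals, 1.20 to 2.15 for miR-9-5p and 1.18 to 1.95 for miR-338-3p. The difference between these members was not tested. With counts of 5542 to 12366 per library, counting error was 1.23% in ctrl libraries while the coefficient of variation between them was 18.5%.

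The 3p arms of miR-218 differ between its precursors, whereas the 5p arm is shared. The 3p arms are printed with the seed in capitals, and their longest common run is 10 bases. Aligned with an offset, the stretch they share differs by a single base. How reads fitting both were assigned is not given in the sources used here.
miR-218-1-3p: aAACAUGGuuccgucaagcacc
miR-218-2-3p: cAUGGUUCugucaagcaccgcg
miR-218-1-3p, from the Slit2 intron, had 22.8, 23.4 and 23.4 CPM in ctrl libraries 1, 2 and 3 and 24.7, 25.3 and 26.5 CPM in caNrf2 libraries 1, 2 and 3. These groups did not overlap, but the difference did not pass the test (log2 fold change 0.13 ± 0.13, SE; edgeR adjusted p = 0.484). miR-218-2-3p, from the Slit3 intron, had 1.66 ± 0.32 CPM in ctrl and 1.63 ± 0.21 CPM in caNrf2 libraries (SD, n = 3; log2 fold change 0.03 ± 0.22, SE; edgeR adjusted p = 0.939).

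Of the 3p counts of miR-218, the Slit2 precursor gave 93.3% ± 1.29 in ctrl and 94.0% ± 0.70 in caNrf2 libraries (SD, n = 3), with the lowest value, 91.9% (95% Clopper-Pearson interval 87.8% to 94.9%), in ctrl library 1. This share describes the 3p arms only, as their reads were assigned, since how much 5p each precursor yields is not in the counts. Both 3p arms together were 5.40% ± 0.92 of all miR-218 counts in ctrl and 5.59% ± 0.34 in caNrf2 libraries (SD, n = 3; two-sided exact permutation p = 0.9). Arm shares were compared in 5 precursor families (adjusted p = 1.0 in each), a design in which none could pass the threshold, so they are given as descriptions.

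The miRNAs linked to pigment cells, miR-204-5p and miR-211-5p, were low in both groups and neither passed the test. miR-204-5p had 5.59, 6.02 and 3.65 CPM in ctrl libraries 1, 2 and 3 and 4.42, 7.69 and 4.69 CPM in caNrf2 libraries 1, 2 and 3. The groups overlapped, with caNrf2 library 2 the highest and ctrl library 3 the lowest. The log2 fold change was 0.17 ± 0.25 (SE; 95% interval -0.38 to 0.72; edgeR adjusted p = 0.645), and it turned to -0.16 without caNrf2 library 2 and to -0.04 without ctrl library 3.

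miR-211-5p, the melanocyte member, had 4.53, 4.02 and 3.26 CPM in the ctrl and 5.05, 3.24 and 5.51 CPM in the caNrf2 libraries, in the order of their numbers. The lowest value of all was that of caNrf2 library 2, the library in which miR-204-5p was highest. The log2 fold change was 0.25 ± 0.22 (SE; 95% interval -0.24 to 0.73; edgeR adjusted p = 0.448), and it lay between 0.06 without caNrf2 library 3 and 0.43 without caNrf2 library 2. For both of these miRNAs the interval still holds a 1.61-fold rise, so the data do not show that they differ from miR-9-5p in their response.

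As a share of the counts of this seed pair, miR-204-5p took 55.2%, 60.0% and 52.9% in ctrl libraries 1, 2 and 3 and 46.7%, 70.3% and 45.96% in caNrf2 libraries 1, 2 and 3. The 95% Clopper-Pearson intervals, for counting error only, were 38.0% to 55.4%, 64.4% to 75.8% and 40.1% to 51.9% in caNrf2 libraries 1, 2 and 3, each from its own mouse. The group means, 56.0% ± 3.64 in ctrl and 54.3% ± 13.9 in caNrf2 libraries (SD, n = 3), differed by less than the spread between libraries. The other arms were at or near 0: miR-204-3p had 1 count in ctrl library 1 and none elsewhere, and miR-211-3p had none in any library.

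miR-124-3p had 3, 1 and 4 counts in ctrl libraries 1, 2 and 3 and 0, 8 and 1 in caNrf2 libraries 1, 2 and 3. The groups overlapped, and the highest and lowest values were both in the caNrf2 group. The 0 in caNrf2 library 1 allows a level of up to 0.210 CPM (3 counts). Summed over each group, the level was 0.170 CPM (exact 95% Poisson interval 0.0734 to 0.335) in ctrl and 0.136 CPM (0.0621 to 0.258) in caNrf2 fibroblasts, and the ratio of 0.799 had an interval of 0.274 to 2.38. miR-124-5p had 3 counts over the ctrl and 2 over the caNrf2 libraries.

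**Figure D4:**
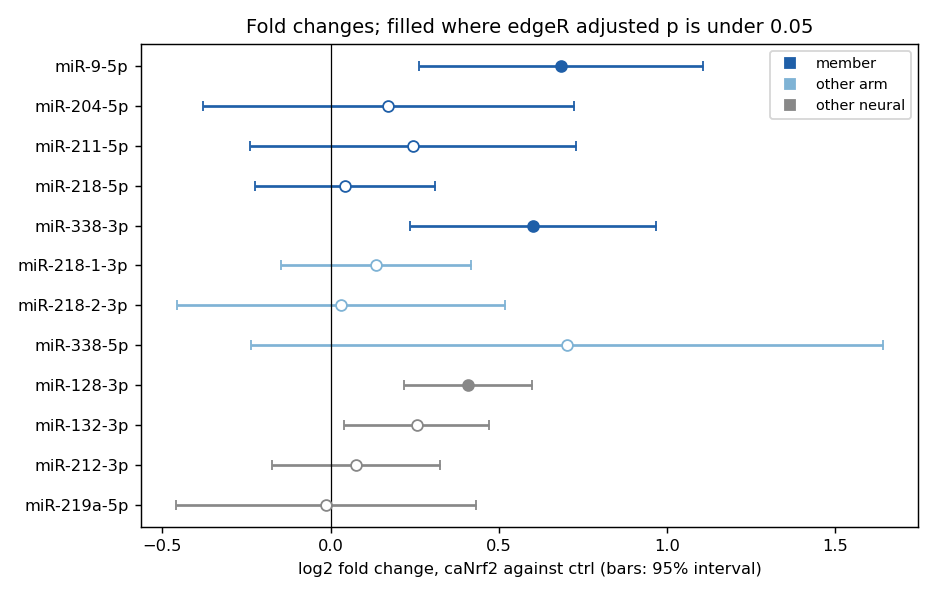
Log2 fold changes (caNrf2 against ctrl) with 95% intervals for the tested members, the tested other arms of their precursors and the tested miRNAs of the further neural list, filled where the edgeR adjusted p is under 0.05. Only miR-9-5p, miR-338-3p and miR-128-3p are filled, and the interval of miR-338-5p, from -0.24 to 1.64, is the widest.

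A further list held 9 miRNAs known from neurons or oligodendrocytes, of which 4 were tested, 1 rose and none fell. Of all 697 tested miRNAs 14.1% were called higher and 11.6% lower. The one that rose was miR-128-3p, a brain-enriched miRNA, with 138, 144 and 144 CPM in ctrl libraries 1, 2 and 3 and 190, 184 and 191 CPM in caNrf2 libraries 1, 2 and 3. Its groups did not overlap (log2 fold change 0.41 ± 0.09, SE; edgeR adjusted p = 0.00551), as for 23.7% of all tested miRNAs with caNrf2 above. miR-132-3p, an activity-induced neuronal miRNA, had 221 ± 18.3 and 264 ± 21.3 CPM (SD, n = 3; log2 fold change 0.26 ± 0.10, SE; edgeR adjusted p = 0.0779), and its cluster partner miR-212-3p had 49.2 ± 1.55 and 51.9 ± 1.26 CPM (edgeR adjusted p = 0.657). The oligodendrocyte miRNA miR-219a-5p had 2.46 ± 0.55 and 2.38 ± 0.17 CPM (SD, n = 3; edgeR adjusted p = 0.979). The median log2 fold change of the 4 was 0.17. miR-137-3p, miR-153-3p, miR-383-5p and miR-488-3p stayed at 9 counts or fewer in every library.

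The genotype groups also differed in miRNAs that mark other cell types, beside the 14.1% of all 697 tested miRNAs called higher and 11.6% called lower. Of 4 tested leukocyte miRNAs miR-142a-5p, miR-142a-3p and miR-223-3p rose, miR-150-5p did not pass and none fell, and their summed level was 34.0 to 66.2 CPM in ctrl and 153 to 229 CPM in caNrf2 libraries. Of 3 muscle miRNAs 2 were tested and both rose, with sums of 335 to 410 and 543 to 720 CPM, while miR-1a-3p, the defining miRNA of muscle fibres, was at or below 0.482 CPM in every library. None of 5 tested keratinocyte miRNAs was called (996 to 1791 CPM in ctrl, 1556 to 2046 CPM in caNrf2), nor were the 2 endothelial (116 to 165 and 147 to 170 CPM) or the 2 erythroid ones (2.99 to 4.54 and 3.65 to 5.32 CPM). All 5 keratinocyte miRNAs had a positive log2 fold change, with a median of 0.37. The median was 0.20 for the endothelial and -0.26 for the erythroid ones. The part of other cell types in the rises of miR-9-5p and miR-338-3p was not tested. In these bulk libraries fewer or more cells of a type and a changed amount of RNA per cell cannot be told apart.

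Across the 6 libraries the leukocyte miRNA miR-142a-5p was among the 3 miRNAs most like each of the risen members in log2 CPM, out of 368 with a mean of at least 10 CPM. Pearson's r was 0.98 with miR-9-5p and 0.98 with miR-338-3p. miR-142a-5p had 23.9, 43.7 and 51.2 CPM in ctrl libraries 1, 2 and 3 and 120, 181 and 129 CPM in caNrf2 libraries 1, 2 and 3, so that ctrl library 1 was lowest and caNrf2 library 2 highest, as for miR-9-5p and miR-338-3p. Nearest of all to miR-9-5p was miR-298-5p (r = 0.98), ahead of miR-142a-5p, and miR-181c-3p (r = 0.94) came after it. Neither miR-298-5p nor miR-181c-3p was called in the comparison of the groups. The others nearest to miR-338-3p were miR-375-3p (r = 0.97) and miR-1839-5p (r = 0.96), which were called higher. These coefficients describe 6 points that share the difference between the groups, and the highest of 368 values is high by selection.

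The members that did not pass had other nearest miRNAs. Those of miR-204-5p were miR-27a-5p (r = 0.87), miR-222-3p (0.87) and miR-433-5p (0.85), and those of its seed partner miR-211-5p were let-7a-5p (0.95), miR-7688-5p (0.87) and miR-146b-5p (0.87). For miR-218-5p they were miR-467e-5p (0.97), miR-193a-3p (0.84) and the epithelial miR-200b-3p (0.83). None of these 9 miRNAs was called in the comparison of the groups. They were picked for likeness to members that did not pass, so this is not a separate result.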

How the data were processed

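Raw counts per mature miRNA were deposited by the authors, 1 file per library with 1907 names, 488 of them at 0 everywhere. The submitters' processing notes list mm10, Bowtie, featureCounts, cutadapt, edgeR and CASAVA 1.8, with no order or settings. How multiply matching reads were counted, and the miRNA release, is not given in the sources used here. Groups came from sample titles. The test was edgeR 4.0.16 (R 4.3.3): TMM, filterByExpr at a minimum count of 10, a quasi-likelihood fit on group alone, Benjamini-Hochberg over 697 miRNAs and a threshold of 0.05. SEs derive from the F statistic, and intervals use its degrees of freedom. Correlations used log2 CPM with a prior count of 2. Arm shares (at least 10 counts in every library) were compared by exact permutation. Named were all members, the other arms of their precursors, called or defining miRNAs of the further lists, and the 3 miRNAs most correlated with each tested member. Members and lists were chosen with earlier results of these data known. The shares of the Slit2 precursor and of miR-204-5p were added after seeing the data. In counts simulated for the 697 miRNAs of the caNrf2 comparison, edgeR recovered 49.3% of 1.5-fold and 85.1% of 2-fold changes. Alternatives were RLE, library totals, DESeq2 1.42.0, no filter, at least 10 CPM on average, a replicate block and leaving out each library.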

Additional observations from a re-analysis of the deposited data

How the results depend on the processing

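The counts of miRNAs called higher and lower were 98 and 81, against 91 and 92 with RLE size factors, 92 and 96 with DESeq2 and 102 and 87 with a replicate block. When 10 CPM on average was required, 60 were higher and 71 lower, where fewer miRNAs (371) were tested. That filter also left 1 member called, miR-338-3p, since only miR-218-5p and miR-338-3p were still tested. With 1 library left out, 71 to 97 miRNAs were higher, 55 to 82 lower and 0 to 2 members called. miR-9-5p and miR-338-3p kept their call with the other scalings, no filter and DESeq2 (adjusted p from 0.00236 to 0.0298).

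Whether the replicate numbers shared by the groups mark pairs is not given in the sources used here. Deviations of same-numbered libraries from their group mean correlated at 0.18, 0.11 and -0.22. Some libraries correlated best with their own number and others did not, and so few libraries cannot decide on pairing. The replicate block kept both calls (adjusted p 0.0159 and 0.0133), and 2 members were called.

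Of the tested members that did not pass, miR-204-5p and miR-218-5p changed sign in some fits and miR-211-5p in none. The other arm miR-218-2-3p also changed sign. With 1 library left out, the log2 fold change of miR-204-5p ran from -0.157 (without caNrf2 library 2) to 0.328 (without ctrl library 2), that of miR-218-5p from -0.0815 (without ctrl library 2) to 0.185 (without ctrl library 1) and that of miR-218-2-3p from -0.0857 (without caNrf2 library 2) to 0.153 (without ctrl library 1). miR-218-2-3p had -0.00628 with RLE and -0.0268 with DESeq2. The cause of these sign changes was not tested. With 1 library left out, the difference in the 3p share (caNrf2 minus ctrl, percentage points) lay between -3.59 and 0.531 for miR-9, -0.847 to 0.0 for miR-204, -0.287 to 0.634 for miR-218 and -1.48 to 1.20 for miR-338, and stayed at 0.0 for miR-211. Depth limits miR-9-3p and miR-124-3p, where 3 counts correspond to 0.107 to 0.289 CPM.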
